A study of Mus musculus with 4 samples.

Results

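The genes described here are 9 genes of the megakaryocyte and platelet line, *Itga2b*, *Itgb3*, *Gp1ba*, *Gp1bb*, *Gp9*, *Gp6*, *Pf4*, *Vwf* and *Ppbp*, chosen by name and looked up by symbol among the 18598 genes of the RNA-seq table of sorted LSK cells. The table held 8 of them, and the expression of *Gp6* was not analysed here. LSK cells are bone marrow cells that lack lineage markers and carry SCA-1 and c-KIT, and they comprise hematopoietic stem and progenitor cells. The group labelled control was *Bptf* f/f in the study, and the second group was *Bptf* f/f with the *Mx1*-cre transgene, labelled *Bptf* -/- and called *Bptf* cKO here. All mice were C57BL/6, about 3 months old and treated with pIpC, and RNA was taken 10 days after cre induction. Each group had 2 libraries, each of which pooled the cells of 5 mice. *Mx1*-cre is driven by an interferon-inducible promoter and acts in more than blood cells. The control mice carried no cre, so the loss of *Bptf* and the presence of active cre cannot be told apart in this comparison.

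Megakaryocytes are the large bone marrow cells that shed platelets. They bind fibrinogen through the integrin of *Itga2b* and *Itgb3*, von Willebrand factor through the complex of *Gp1ba*, *Gp1bb*, *Gp9* and *Gp5*, and collagen through GPVI, the product of *Gp6*. Their alpha granules store von Willebrand factor and the chemokines of *Pf4* and *Ppbp*. Part of the stem cell pool expresses such genes before any commitment, and *Itga2b*, which encodes CD41, and *Vwf* are known from platelet-biased stem cells.

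Depth ranged from 14091054 to 30134742 reads on listed genes, with replicate 1 of each genotype the deeper. The targeted gene *Bptf* had 5520 and 5850 normalized counts in *Bptf* f/f, 3398 and 3320 in *Bptf* cKO, and passed as lower (log2 fold change -0.76, limma adjusted p = 0.0439). That call was lost with any 1 library left out, with edgeR (adjusted p = 0.0531) and with limma without the trend (0.178). It held with DESeq2 (adjusted p = 1.01e-07). A normalized count is the number of reads on a gene divided by the size factor of its library. *Kit*, which defines the sort together with SCA-1, lay between 13634 and 17051 normalized counts in every library, and all 6 LSK markers looked up were listed. Libraries stood apart in markers of other cell types. The summed level of 12 neutrophil and monocyte markers was 82844 in *Bptf* f/f replicate 1 and 14957 in replicate 2, against 49996 and 40443 in *Bptf* cKO. The summed level of 8 mast cell and basophil markers was 1328 and 592 normalized counts in *Bptf* f/f and 5748 and 25137 in *Bptf* cKO, and for 7 of the 8 the lower *Bptf* cKO value exceeded the higher *Bptf* f/f value, as it did for 23.2% of all genes tested. In such bulk samples, fewer cells of a type and less RNA per cell cannot be told apart.

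None of the 8 platelet genes passed the test between genotypes. The comparison used limma and took in the 14858 genes whose mean reached 10 normalized counts, on log2 of the normalized count plus 1, and a gene passed at an adjusted p under 0.05. Over all of these genes, 0.37% passed as lower and 0.37% as higher in *Bptf* cKO, or 0.74% in either direction. Of the 8 members 0 passed in either direction, 1, *Pf4*, had an unadjusted p under 0.05, as did 15.7% of all genes tested, and edgeR and DESeq2 on recovered reads also found 0. The median log2 fold change of the 8 genes was -0.19, beside 0.0010 over all genes tested, with 5 values below 0 and 3 above. The libraries of the 2 genotypes did not overlap for 1 of the 8 genes, *Pf4*, and overlapped for the other 7, while 47% of all tested genes did not overlap. For 1 gene taken alone, 2 libraries against 2 allow no exact permutation p (two-sided) smaller than 0.333.

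**Figure D1:**
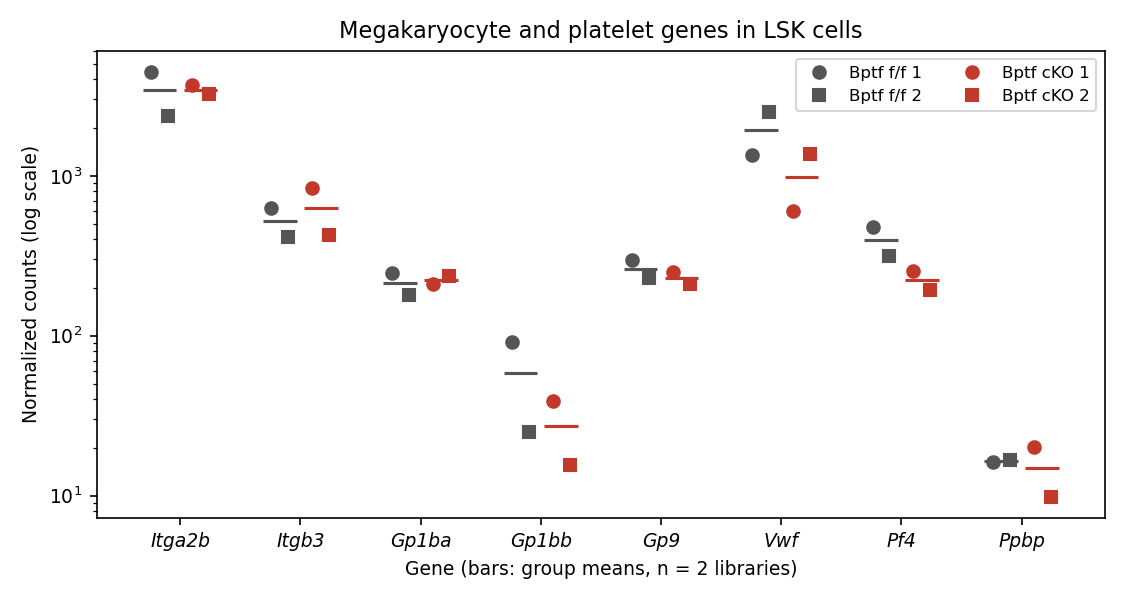
Normalized counts (log scale) of the 8 listed platelet genes in each library, in grey for Bptf f/f and in red for Bptf cKO, with circles for replicate 1, squares for replicate 2 and a bar at each group mean. Only for Pf4 do both red symbols lie below both grey ones, and the range runs from 9.88 normalized counts for Ppbp to 4453 for Itga2b.

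The levels of the 8 genes spanned a wide range once divided by exon length. That length merges all annotated exons of a gene, 881 bp for *Gp9* and 16064 bp for *Vwf*. It can exceed the length of the transcripts present, so the order of the genes depends on it. *Itga2b* was the highest in *Bptf* f/f, at 626 ± 269 normalized counts per kb of exon (SD, n = 2 libraries). *Pf4* came next with 551 ± 163 per kb, and the order of these 2 genes differed between the 2 *Bptf* f/f libraries. *Gp9* followed with 299 ± 55.4 per kb and *Vwf* with 119.9 ± 50.5 per kb, each below the range of the gene before it. *Vwf*, *Itgb3* at 88.9 ± 25.8 per kb and *Gp1ba* at 78.8 ± 17.7 per kb had ranges that overlapped between neighbours. *Gp1bb*, at 27.9 ± 22.5 per kb, lay below *Gp1ba* in all libraries, and *Ppbp*, at 15.2 ± 0.231 per kb, was the lowest in the mean. *Gp1bb* and *Ppbp* changed places between the libraries of each genotype. Reads behind these values numbered at least 130 per library for 6 of the genes, 11 to 118 for *Gp1bb* and 7 to 31 for *Ppbp*.

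The fibrinogen receptor genes showed no difference between genotypes larger than the spread between libraries. *Itga2b*, on the minus strand of chromosome 11 (chr11:102453297-102470122, GRCm38, GENCODE vM21), encodes the alpha chain of the receptor. It had 4453 and 2377 normalized counts in *Bptf* f/f and 3686 and 3221 in *Bptf* cKO. The *Bptf* cKO values lay between the *Bptf* f/f values. The difference was 0.083 on the log2 scale (SE 0.30, adjusted p = 0.936 by limma), with a 95% interval from -0.67 to 0.84. *Itgb3*, on the plus strand of the same chromosome (chr11:104608000-104670476), encodes the beta chain, which also pairs with the alpha chain of the vitronectin receptor in other cells. It had 632 and 417 normalized counts in *Bptf* f/f and 837 and 423 in *Bptf* cKO. The highest and the second lowest value were thus both *Bptf* cKO libraries. On the log2 scale it differed by 0.21 with an SE of 0.37 (limma, adjusted p = 0.848), with a 95% interval from -0.74 to 1.16. The alpha chain exceeded the beta chain in every library, and the ratio of their levels per kb was 7.62 and 6.16 in *Bptf* f/f and 4.76 and 8.23 in *Bptf* cKO.

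The genes of the von Willebrand factor receptor likewise overlapped between genotypes. *Gp1ba*, on chromosome 11 (chr11:70639122-70642036, plus strand), encodes the chain that binds von Willebrand factor. It had 248 and 180.2 normalized counts in *Bptf* f/f and 209 and 236 in *Bptf* cKO, so both *Bptf* cKO values lay inside the *Bptf* f/f range. limma gave a log2 difference of 0.071 (SE 0.23) and an adjusted p of 0.929, with a 95% interval from -0.51 to 0.65. *Gp9*, on chromosome 6 (chr6:87778072-87779768, plus strand), encodes a small leucine-rich chain that the receptor needs to reach the cell surface. It had 298 and 229 normalized counts in *Bptf* f/f and 250.2 and 212 in *Bptf* cKO, and replicate 1 of *Bptf* cKO was above replicate 2 of *Bptf* f/f. The difference was -0.18 on the log2 scale (SE 0.22, adjusted p = 0.756 by limma), with a 95% interval from -0.73 to 0.37. These 2 intervals were the narrowest of the 8 genes.

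*Gp1bb* encodes the beta chain that is linked to the *Gp1ba* product by a disulfide bond. The gene lies on chromosome 16 (chr16:18620317-18622403, minus strand), and 1902 of its 2087 exonic bases are shared with *Sept5*, a septin gene on the same strand, and 867 with *Gm49601*. *Gp1bb* had 91.5 and 24.9 normalized counts in *Bptf* f/f and 39.0 and 15.5 in *Bptf* cKO. Replicate 1 of *Bptf* cKO was above replicate 2 of *Bptf* f/f. On the log2 scale it differed by -0.93 with an SE of 0.77 (limma, adjusted p = 0.631), and its 95% interval, from -2.88 to 1.02, was the widest of the 8. *Sept5* had 197 and 59.6 normalized counts in *Bptf* f/f and 93.6 and 74.8 in *Bptf* cKO, and how reads in the shared bases were assigned is not given in the sources used here, so the level of *Gp1bb* is uncertain. *Gp5*, the remaining chain of the receptor and no member of the 9, had 430 and 202 normalized counts in *Bptf* f/f against 260 and 234 in *Bptf* cKO (log2 fold change -0.26, limma adjusted p = 0.81).

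*Gp1ba* and *Gp9* are shown by their promoters because they serve the same receptor and had the narrowest intervals. The sequences are the 250 bases before the RefSeq start of each gene (GRCm38.p6), 5′ to 3′ on the strand of the gene, with GATAA, the core bound by GATA factors, and GGAAG, a core bound by ETS factors, in capitals on either strand. RefSeq promoters matched 7 of the 9 genes by symbol.
Gp1ba (chr11:70638872-70639121, plus strand): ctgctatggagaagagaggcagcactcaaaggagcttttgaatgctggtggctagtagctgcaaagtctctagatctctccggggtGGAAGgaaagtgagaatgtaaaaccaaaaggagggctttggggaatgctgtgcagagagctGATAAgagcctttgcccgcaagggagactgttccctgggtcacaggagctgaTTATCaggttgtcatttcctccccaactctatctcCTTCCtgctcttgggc
Gp9 (chr6:87777820-87778069, plus strand): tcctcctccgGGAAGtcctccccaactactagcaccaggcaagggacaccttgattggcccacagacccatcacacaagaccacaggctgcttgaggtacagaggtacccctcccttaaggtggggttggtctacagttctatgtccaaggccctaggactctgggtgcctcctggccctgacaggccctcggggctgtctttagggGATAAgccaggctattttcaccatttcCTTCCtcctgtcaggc
The *Gp1ba* window held 2 GATAA and 2 GGAAG matches, and the *Gp9* window held 1 and 2. Of 7 member windows, that of *Gp6* included, 3 held GATAA and 6 held GGAAG. Over all 32851 promoter windows of this length the shares were 22.6% for GATAA and 64.1% for GGAAG. Over the 14807 windows of genes listed in the RNA-seq data they were 15.4% and 68.3%. These letters are a description of the windows, and binding was not measured here.

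*Vwf*, on chromosome 6 (chr6:125546774-125686679, plus strand), encodes von Willebrand factor, the adhesive protein that bridges platelets and the vessel wall. It had 1353 and 2499 normalized counts in *Bptf* f/f and 599 and 1362 in *Bptf* cKO. The upper *Bptf* cKO library lay just above the lower *Bptf* f/f library, so the groups overlapped. The mean was 1926 ± 811 in *Bptf* f/f and 980.4 ± 539 in *Bptf* cKO (SD, n = 2 each). The log2 difference of -1.02 (SE 0.46, adjusted p = 0.378 by limma) was the most negative of the 8 genes and did not pass, with a 95% interval from -2.20 to 0.15. Without *Bptf* cKO replicate 1 the log2 fold change was -0.43, and without *Bptf* cKO replicate 2 it was -1.62. *Vwf* is also made by endothelial cells. Of 12 endothelial markers 10 were listed, none of them at 0 in all libraries, with a summed level of 6684 and 8307 normalized counts in *Bptf* f/f and 5491 and 6377 in *Bptf* cKO. Most of this sum was *Tie1*, which stem cells also express. *Egfl7*, the next highest of the list, had 1877 and 2123 normalized counts in *Bptf* f/f and 1106 and 1397 in *Bptf* cKO. *Cdh5*, *Kdr* and *Cldn5* were named after their values were seen. *Cdh5*, a defining endothelial gene, had 3.10 to 9.70 normalized counts in the 4 libraries and overlapped between genotypes. *Kdr* (31.0 and 54.1 against 25.3 and 18.3) and *Cldn5* (10.1 and 19.4 against 0.65 and 0) were lower in both *Bptf* cKO libraries. Of the 10 listed markers, 4 were below and 2 above in both *Bptf* cKO libraries, against 23.8% and 23.2% of all genes tested. Of the 8 tested markers 0 passed, beside 0.37% of all genes in each direction, and their median log2 fold change was -0.18. The part of endothelial RNA in the level of *Vwf* was not tested.

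The chemokine genes *Pf4* and *Ppbp* lie next to each other on the plus strand of chromosome 5, 2372 bp apart, *Ppbp* at chr5:90768518-90770063 and *Pf4* at chr5:90772435-90773383. *Pf4* encodes platelet factor 4, and *Ppbp* encodes the precursor of platelet basic protein. *Pf4* had 481 and 315 normalized counts in *Bptf* f/f and 255 and 192 in *Bptf* cKO. Both *Bptf* cKO libraries were below both *Bptf* f/f libraries, as was the case for 23.8% of all tested genes. limma gave a log2 difference of -0.81 (SE 0.27) and an adjusted p of 0.259, with a 95% interval that reached from -1.503 to -0.117, and it did not pass after adjustment over all genes. *Ppbp* had 16.3 and 16.6 normalized counts in *Bptf* f/f and 20.1 and 9.88 in *Bptf* cKO. The *Bptf* f/f values lay between the *Bptf* cKO values. The difference was -0.20 on the log2 scale (SE 0.56, adjusted p = 0.914 by limma), with a 95% interval from -1.62 to 1.21, on 7 to 31 reads per library. The level of *Pf4* per kb was 44.3 and 28.4 times that of *Ppbp* in *Bptf* f/f and 19.0 and 29.2 times in *Bptf* cKO.

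The windows before both starts are printed because these neighbours, of the same chemokine family, differed so far in level. Capitals mark GATAA and GGAAG on either strand as above.
Pf4 (chr5:90772185-90772434, plus strand): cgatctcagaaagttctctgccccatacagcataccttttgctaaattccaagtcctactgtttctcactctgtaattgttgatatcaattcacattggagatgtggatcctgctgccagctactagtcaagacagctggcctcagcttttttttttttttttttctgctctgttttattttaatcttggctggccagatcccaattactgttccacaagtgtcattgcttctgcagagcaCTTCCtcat
Ppbp (chr5:90768268-90768517, plus strand): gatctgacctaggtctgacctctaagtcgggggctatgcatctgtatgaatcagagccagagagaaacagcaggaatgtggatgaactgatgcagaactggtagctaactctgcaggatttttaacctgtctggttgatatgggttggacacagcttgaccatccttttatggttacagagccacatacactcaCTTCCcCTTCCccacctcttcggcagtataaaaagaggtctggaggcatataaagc
Neither window held GATAA. The *Pf4* window held 1 GGAAG match and the *Ppbp* window held 2. *Ppbp* also held 1 match to TGANTCA, with N any base, and *Pf4* held none. It was found in 6.75% of all promoter windows and in 4.75% of those of listed genes. The match in the *Ppbp* window reads tgaatca. The core shared by AP1 and NF-E2 sites has C or G at the middle base, so this match is not that core.

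**Figure D2:**
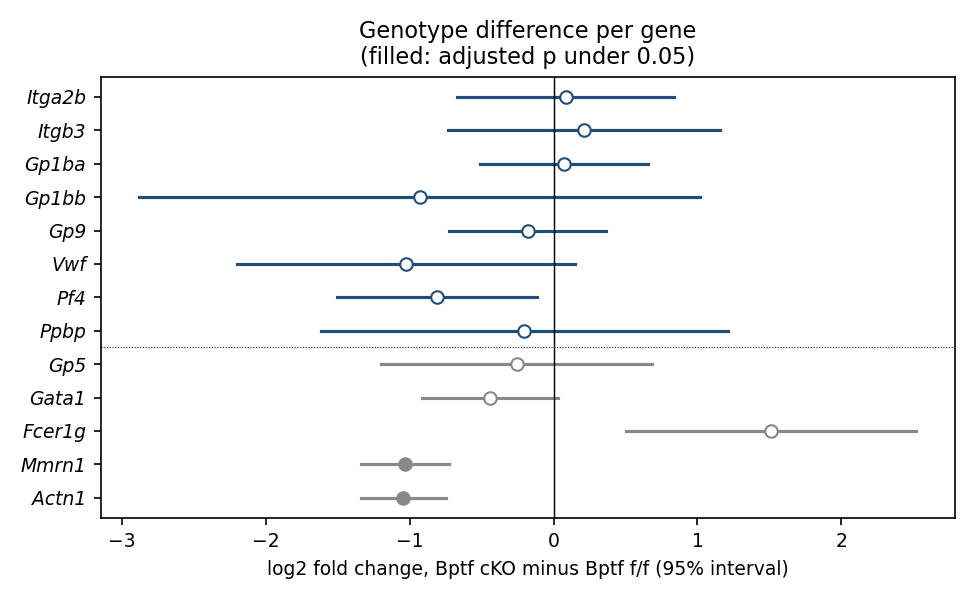
Log2 fold change of Bptf cKO minus Bptf f/f with its 95% interval from limma for the 8 platelet genes (blue, above the dotted line) and 5 other genes of the line (grey), with filled circles for an adjusted p under 0.05. All 8 blue circles are open, the interval of Pf4 ends at -0.12, and the filled circles of Mmrn1 and Actn1 lie at -1.03 and -1.04.

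Libraries of the same genotype differed widely for several of the genes. The higher library exceeded the lower by 1.87 times for *Itga2b*, 1.85 times for *Vwf* and 3.67 times for *Gp1bb* in *Bptf* f/f. In *Bptf* cKO the corresponding ratios were 1.14, 2.27 and 2.51. *Vwf* was higher in replicate 2 of both genotypes, and it was the only one of the 8 genes with that pattern. *Itga2b*, *Itgb3*, *Gp1bb*, *Gp9* and *Pf4* were higher in replicate 1 of both genotypes, and *Gp1ba* and *Ppbp* followed neither order. Replicate 1 of *Bptf* f/f, which had the highest value of *Itga2b*, *Gp1ba*, *Gp1bb*, *Gp9* and *Pf4*, was also the library with the highest sum of neutrophil and monocyte markers, and the part of this in the result was not tested.

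The genes nearest in pattern were found by the distance between log2 values centred over the 4 libraries, among the 10815 genes whose mean reached 100 normalized counts. Nearest to *Gp9* was *Man2a1*, a Golgi mannosidase gene, at a distance of 0.018. Nearest to *Gp1ba* was *Gna11* at 0.036, and nearest to *Itga2b* was *Stambpl1* at 0.076. *Itgb3* was nearest to *Nr2f6* at 0.084. *Pf4* was nearest to *Ggt5* at 0.118, and *Vwf* to *Aldh1a1*, a retinaldehyde dehydrogenase gene, at 0.151. The median distance over all genes ran from 0.473 for *Gp1ba* to 1.49 for *Vwf*. With only 4 libraries, the likeness is a description.

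Among 134 further genes of the line, grouped in 6 lists, a granule gene and a cytoskeletal gene, *Mmrn1* and *Actn1*, fell. Of the 130 that were listed, 127 were tested, and 2 passed as lower and 0 as higher, or 1.57% and 0%, beside 0.37% of all genes in each direction. edgeR on recovered reads passed 2 as lower and 0 as higher, beside 45 and 49 of all 14858 genes tested. DESeq2 passed 13 as lower and 5 as higher, beside 490 and 318 of all genes. The median log2 fold change over the 127 genes was -0.042, beside 0.0010 over all genes tested. Both *Bptf* cKO libraries were below both *Bptf* f/f libraries for 42 genes and above for 27, against 23.8% and 23.2% of all genes.

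*Mmrn1* encodes multimerin, a granule protein that binds coagulation factor V. Its normalized counts fell from 1594 and 1813 to 799 and 865 (log2 fold change -1.03, standard error 0.12, limma adjusted p = 0.043). *Actn1* encodes the actin cross-linking protein alpha-actinin, which is not particular to platelets. It fell from 1049 and 1052 to 493 and 525 (log2 fold change -1.04, standard error 0.12, limma adjusted p = 0.0394). These calls rest on few libraries. Both were lost with any 1 library left out. Then 0 genes of the lists passed as lower, except that 1, *Esam*, an adhesion molecule gene named after its values were seen, passed without *Bptf* f/f replicate 1.

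**Figure D3:**
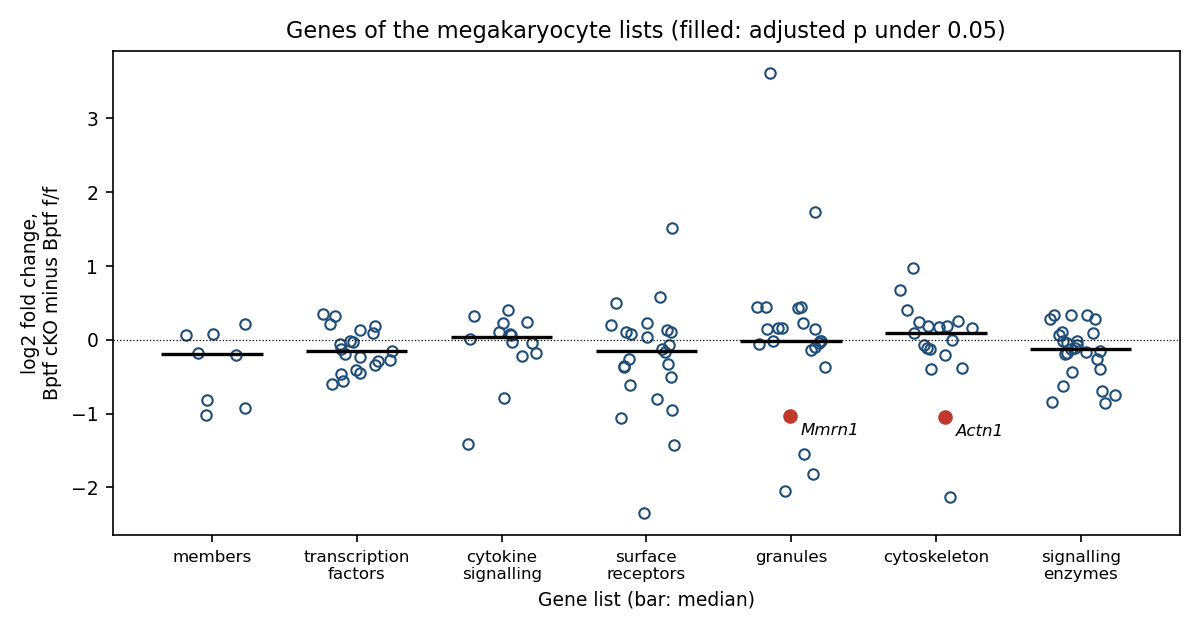
Log2 fold change of Bptf cKO minus Bptf f/f for the 8 tested members and the 127 tested genes of 6 further lists of the megakaryocyte line, with a bar at the median of each list and filled red circles for an adjusted p under 0.05. The list medians lie between -0.19 and 0.095, and the 2 filled circles, Mmrn1 and Actn1, lie below -1.

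Transcription factors of the line passed in neither direction. Of 21 tested genes 0 passed, 6 had an unadjusted p under 0.05 (15.7% of all genes), and the median log2 fold change was -0.16. *Gata1*, the zinc finger factor that drives megakaryocyte and erythroid genes, had 745 and 545 normalized counts in *Bptf* f/f and 475 and 460.0 in *Bptf* cKO. Both *Bptf* cKO values were below both *Bptf* f/f values, as for 23.8% of all genes tested. The log2 difference was -0.45 (SE 0.19, adjusted p = 0.343 by limma). *Gata2*, which precedes it in stem and progenitor cells, had 6481 and 5883 normalized counts in *Bptf* f/f and 7583 and 8202 in *Bptf* cKO (log2 fold change 0.35, limma adjusted p = 0.206). *Etv6* and *Ldb1*, the other factors with the highest level on the list, had limma adjusted p values of 0.814 and 0.983.

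Of the 14 tested genes of cytokine signalling in the line 0 passed, 4 had an unadjusted p under 0.05 (15.7% of all genes), and the median was 0.044. *Stat3*, *Cbl* and *Grb2*, a transcription factor, a ubiquitin ligase and an adaptor with the highest mean counts of the list, had log2 fold changes of 0.32, 0.10 and 0.24 and did not pass. Among 24 tested platelet surface receptors 0 passed, 7 had an unadjusted p under 0.05 (15.7% of all genes), and the median was -0.15. *Cd47*, *Itgb1* and *Pear1* were the highest of them, with limma adjusted p values of 0.789, 0.293 and 0.583. Receptors typical of mature platelets included some with few reads. *P2ry12*, the ADP receptor, had 2.33 to 3.90 normalized counts and *Clec1b*, the podoplanin receptor, 5.20 to 11.6, both named after their values were seen. *Treml1*, named in the same way, had 150 and 116 in *Bptf* f/f and 81.9 and 56.4 in *Bptf* cKO (limma adjusted p = 0.252). Of the 24 tested receptors, 11 were below and 2 above in both *Bptf* cKO libraries, against 23.8% and 23.2% of all genes tested.

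*Fcer1g* encodes the signalling chain with which GPVI is expressed on platelets and with which the IgE receptor is expressed on mast cells. It had 548 and 237 normalized counts in *Bptf* f/f and 935 and 1133 in *Bptf* cKO. Both *Bptf* cKO values exceeded both *Bptf* f/f values, as for 23.2% of all genes tested. Its log2 difference of 1.51 (SE 0.40, adjusted p = 0.182 by limma) did not pass. Without *Bptf* f/f replicate 1 it passed, at a log2 difference of 2.11 (adjusted p = 0.0307 by limma), and with all libraries it passed with DESeq2 (1.39, adjusted p = 0.00834) and not with edgeR (1.38, adjusted p = 0.215). Of the 8 mast cell and basophil markers, 7 were also higher in both *Bptf* cKO libraries, against 23.2% of all genes tested. *Cpa3*, a mast cell protease gene, had 855 and 244 normalized counts in *Bptf* f/f and 3645 and 9868 in *Bptf* cKO, *Cma1* had 21.7 and 45.7 against 309 and 5263, and of the 8 mast cell and basophil markers none was at 0 in all libraries and 0 passed with limma. With DESeq2 *Cpa3* (adjusted p = 0.0112) and *Cma1* (adjusted p = 0.0030) passed. Their part in the level of *Fcer1g* was not tested.

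**Figure D4:**
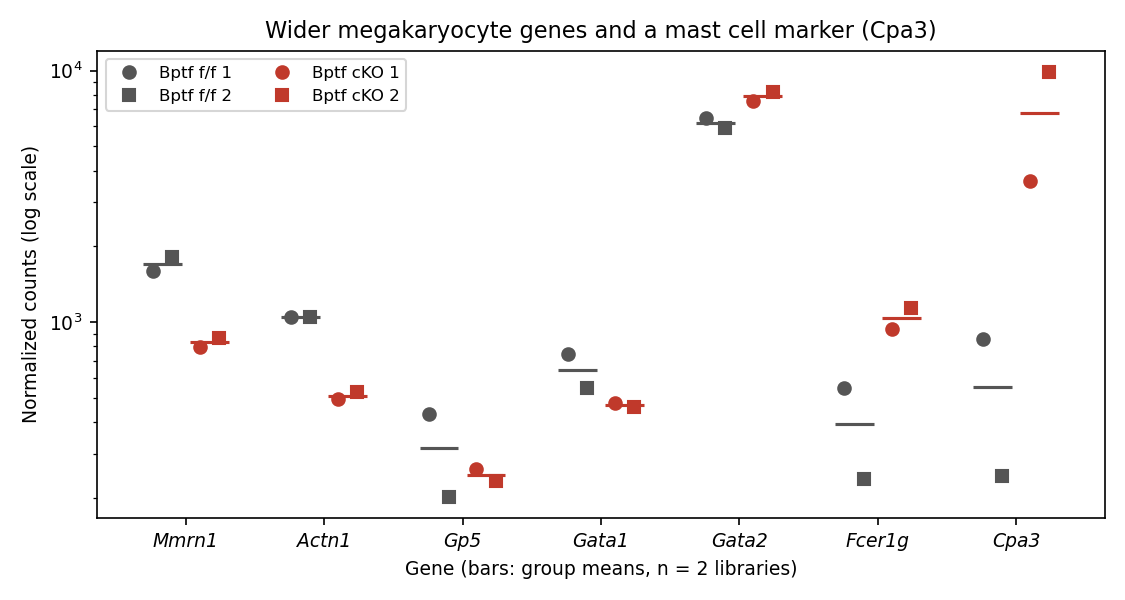
Normalized counts (log scale) of 6 genes of the megakaryocyte line and of the mast cell marker Cpa3 in each library, drawn as in the plot of the platelet genes. Mmrn1 lies at 1594 and 1813 in Bptf f/f and at 799 and 865 in Bptf cKO, and Fcer1g and Cpa3 are higher in both Bptf cKO libraries.

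Of 23 tested genes of granule content and formation, 1 fell, *Mmrn1*, and the median was -0.018. *Srgn*, the granule proteoglycan, *Tgfb1* and *Nbeal2*, which is needed to form alpha granules, were the highest, with log2 fold changes of -0.018, 0.45 and -0.037, none of which passed. Of 19 tested cytoskeletal genes 1 fell, *Actn1*, and the median was 0.095. *Tln1*, *Myh9* and *Flna*, which encode talin, nonmuscle myosin IIA and filamin A, had log2 fold changes of 0.24, 0.68 and 0.41 and limma adjusted p values of 0.503, 0.0629 and 0.143. *Myh9* passed without a filter on low values (adjusted p = 0.0486 by limma) and with DESeq2 (adjusted p = 3.03e-07), and did not pass with edgeR (adjusted p = 0.0656). Of 26 tested signalling enzymes and adaptors 0 passed, 7 had an unadjusted p under 0.05 (15.7% of all genes), the median was -0.12, and *Syk*, *Plcg2* and *Inpp5d*, the highest of them, had limma adjusted p values of 0.85, 0.577 and 0.48.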

How the data were processed

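RNA-seq covered 4 LSK libraries, 2 for each genotype. The authors deposited a signal per gene symbol, which is the read count after division by the size factor of its library, and its mean. They also deposited their own comparison, not used here, which holds log2 fold changes with errors, a score and p-values. The submitters' processing notes name HISAT2, featureCounts and DESeq2, GRCm38 and mm10. The counting of strand and of overlapping genes is not given in the sources used here. Every listed gene had at least 11 reads in all. Whole reads were recovered for 100% of values (tolerance 0.01 read).

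Genes with a mean of at least 10 (14858 of 18598) were compared on log2(value + 1), which understates changes of low genes, by the two-sided test of limma 3.58.1 (R 4.3.3, trended variance). The fit held genotype alone, and p-values were adjusted by Benjamini-Hochberg over every tested gene. Intervals and p-values measure the spread between pools of mice. Alternatives were edgeR 4.0.16 and DESeq2 1.42.0 on recovered reads, other pseudocounts, filters, scalings, thresholds, a replicate block and each library left out. Depth limits genes with few reads. Counts were simulated for 14858 genes of this comparison, with 100 genes changed by 1 on the log2 scale. The changed genes were drawn from those with a mean of at least 50, and the same dispersion was set for every gene. limma recovered 97% of these 100 genes. It recovered 61% where replicate 1 and replicate 2 differed, alike in both genotypes, by a log2 effect of SD 0.25. Those shares do not give the chance of finding such a change in the 8 platelet genes, whose limma SE ran from 0.22 to 0.77. *Vwf*, at a log2 fold change of -1.02 with an SE of 0.46, did not pass. *Mmrn1*, at -1.03 with an SE of 0.12, passed. Exon lengths, which merge all annotated exons of a gene, and coordinates come from GENCODE vM21. The members, lists and motifs were chosen with earlier results of these data known. The rule for named genes took all members, *Bptf*, genes that passed (at most 5 a list), the 3 highest genes of each list, *Fcer1g*, *Gp5* and *Gata1*, genes overlapping a member, the 2 highest of each marker list and the nearest patterns. Other names were chosen after their values were seen. Of the genes in the rule and lists, 1 is not reported here.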

Additional observations from a re-analysis of the deposited data

How the results depend on the processing

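The direction and the failure to pass of *Pf4*, *Vwf*, *Gp1bb* and *Gata1* held in every alternative that gave a value other than the replicate block. *Gp1bb* and *Ppbp* gave none at a mean of at least 50. Leaving out 1 library at a time turned the direction of 5 members and of *Gp5*, with log2 fold changes from -0.37 to 0.54 for *Itga2b*, -0.28 to 0.70 for *Itgb3*, -0.16 to 0.30 for *Gp1ba*, -0.37 to 0.0090 for *Gp9*, -0.68 to 0.28 for *Ppbp* and -0.80 to 0.28 for *Gp5*. *Vwf* ranged from -1.62 to -0.43 and *Pf4* from -1.11 to -0.51. The number of members that passed was 0 to 0 without 1 library. For the wider lists it was 0 to 1 lower and 0 to 1 higher, and for all genes 0 to 41 lower and 1 to 76 higher, with fewer samples in each fit. DESeq2 on recovered reads passed 13 wider genes as lower and 5 as higher (490 and 318 of all genes). limma without the trend passed 0 wider genes as lower, and 0 lower and 2 higher of all genes. An adjusted p under 0.01 left 0 wider genes lower, and 2 lower and 5 higher of all genes, while one under 0.1 gave 239 lower and 173 higher of all genes and 1 wider gene higher. No filter on low values gave 1 wider gene higher. The causes were not tested. Recentring libraries on their medians moved the median of all genes from 0.0010 to 0.053 and left 1 wider gene lower, *Actn1*, and *Bptf* no longer passed.

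The labels give both genotypes replicate numbers but do not say that a number marks a shared litter or day, and 2 pairs are too few to decide it, so the block is an alternative. Deviations of same-numbered libraries from their group means had a correlation of 0.452 over 14858 genes. With the replicate block limma passed 2 members as lower, *Pf4* (adjusted p = 0.00646) and *Vwf* (9.15e-05), with 26 wider genes lower and 12 higher and 1242 lower and 896 higher of all genes, so that 8.36% and 6.03% of genes passed. edgeR with the block passed 2 members as lower, with 25 and 13 wider genes and 1229 and 891 of all genes. DESeq2 with the block passed 1 member, *Vwf*, with 16 and 6 wider genes and 560 and 382 of all genes.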

Other observations

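Erythroid genes, which share *Gata1* with the megakaryocyte line, had lower values in *Bptf* cKO. Of 12 markers, all listed, 10 were below both *Bptf* f/f libraries in both *Bptf* cKO libraries (23.8% of all genes tested), and 1 of 11 tested passed as lower (0.37% of all genes). Their summed level was 13834 and 15713 normalized counts in *Bptf* f/f and 6788 and 7599 in *Bptf* cKO. Most of this sum was *Car2*, with 10214 and 12938 normalized counts in *Bptf* f/f and 5706 and 6511 in *Bptf* cKO (limma adjusted p = 0.0760). *Epor*, the erythropoietin receptor, named after its values were seen, passed with 326 and 255 normalized counts against 77.3 and 69.1 (log2 fold change -1.96, limma adjusted p = 0.0443). This call was lost with any 1 library left out (adjusted p from 0.0847 to 0.299), with edgeR (0.0513) and with limma without the trend (0.118), and held with DESeq2 (2.27e-07). *Car1* had 1646 and 929 against 278 and 243 (adjusted p = 0.0524), and *Klf1*, named after its values were seen, had 367 and 143 against 57.8 and 49.4 (adjusted p = 0.142). The 9 listed B and T cell markers had summed levels of 8163 and 2654 in *Bptf* f/f and 4682 and 2801 in *Bptf* cKO.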
